A study of Mus musculus with 19 samples.

Results

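The genes described here are the mouse receptors for the Fc part of IgG and the proteins that carry their signal: Fcgr1, Fcgr3 and Fcgr4 (activating receptors), Fcgr2b (the inhibitory receptor), Fcer1g (their shared signalling chain), Syk (the kinase that the chain recruits) and Fcgrt (the neonatal Fc receptor). They were chosen by name, with earlier results of these data known, and are 7 of the 57010 genes in the deposited table. All 7 passed the filter on low counts that left 17757 genes. Messenger RNA with a poly(A) tail had been sequenced from medial prefrontal cortex, taken from wild-type mice in 4 groups. Controls (n = 4) were gavaged with saline over 8 days and injected intraperitoneally with saline over 5 days. The LPS group (n = 5) got the same saline gavage and lipopolysaccharide, a bacterial cell wall component that sets off systemic inflammation, at 1 mg/kg by intraperitoneal injection on each of 5 days. The sedanolide group (n = 5) was gavaged with sedanolide, a phthalide of celery oil, at 20 mg/kg over 8 days and injected with saline. The co-treated group (n = 5) got sedanolide at 20 mg/kg and LPS at 1 mg/kg, and in both LPS groups the gavage began 3 days ahead of the injections. Age and sex are not given in the sources used here. It is not stated that each replicate is its own animal, so the p-values speak only of the spread among these libraries, which may be technical.

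IgG bound to a cell surface or an antigen is read by Fc receptors on myeloid cells, which in the brain are mainly microglia and the macrophages of its borders. Activating receptors have no signalling motif of their own in mice and rely on the FcR gamma chain encoded by Fcer1g, whose ITAM (a tyrosine motif) is phosphorylated by Src family kinases and then binds Syk, which drives phagocytosis and the oxidative burst. Fcgr2b carries an inhibitory motif, the ITIM, which recruits the phosphatase SHIP1 (Inpp5d) and sets a brake on the same signal. Fcgrt stands apart from this circuit: with beta-2 microglobulin (B2m) it forms FcRn, which rescues IgG from degradation in endothelium and macrophages and carries no ITAM.

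The promoters of the 4 Fc gamma receptors are shown because these receptors are all genes of myeloid cells and all rose with LPS. Each line gives the 120 bases before the RefSeq gene start, 5′ to 3′ on the gene's strand (GRCm38.p6). Capitals mark matches to any of 3 short motifs.
Fcgr1 (chr3:96293970-96294089, minus strand): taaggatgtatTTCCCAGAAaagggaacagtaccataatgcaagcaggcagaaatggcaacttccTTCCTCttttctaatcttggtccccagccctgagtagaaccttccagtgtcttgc
Fcgr3 (chr1:171059404-171059523, minus strand): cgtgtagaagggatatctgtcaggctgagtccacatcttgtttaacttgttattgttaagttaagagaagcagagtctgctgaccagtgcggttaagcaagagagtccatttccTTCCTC
Fcgr4 (chr1:171018806-171018925, plus strand): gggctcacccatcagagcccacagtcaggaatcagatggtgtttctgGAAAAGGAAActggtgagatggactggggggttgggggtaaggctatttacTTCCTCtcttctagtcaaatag
Fcgr2b (chr1:170976072-170976191, minus strand): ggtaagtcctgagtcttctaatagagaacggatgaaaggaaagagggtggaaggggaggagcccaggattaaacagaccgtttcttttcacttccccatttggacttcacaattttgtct
The motifs were the PU.1 core GAGGAA, bound by the myeloid factor PU.1, the GAS motif TTCNNNGAA of STAT factors, and the ISRE core of interferon-response factors (GAAA, any 2 bases, GAAA), each searched on both strands of the 250 bases before the start, and no match overlapped another. The PU.1 core, read here as TTCCTC on the opposite strand, lay 55 to 50 bases before the Fcgr1 start, 6 to 1 before the Fcgr3 start and 22 to 17 before the Fcgr4 start. At the first RefSeq start of each gene it was in 3 of 7 members, Syk having it 9 to 4 bases before another start, and it was in 23.3% of 32851 promoters of the same length. Fcgr1 held the GAS match, 109 to 101 bases before its start (7.02% of promoters had one). Fcgr4 held the ISRE match, 73 to 64 bases before its start (2.98% of promoters). No match fell in the Fcgr2b stretch. A match is a description of the letters and not a site shown to be bound.

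Each library held between 19.08 M and 24.32 M counts (M, mega). Some libraries contained RNA of the olfactory bulb, which adjoins the dissected cortex: Cdhr1, a gene of bulb projection neurons, was at 2.288 to 9.917 CPM (counts per M, scaled by library factors) in 12 libraries and at 57.66 to 444.8 CPM in 7, here called bulb-poor and bulb-rich. The 7 were control replicates 1 and 5, LPS replicates 2, 3 and 4, and sedanolide replicates 3 and 4, so no co-treated library was bulb-rich. Markers of cortical excitatory neurons summed to between 2574 and 8057 CPM in all libraries. They were lower in bulb-rich than in bulb-poor controls (2574 to 3837 against 5164 to 6415 CPM) and LPS libraries (4837 to 6257 against 6436 to 7307). In sedanolide libraries the 2 sides overlapped (5219 to 7225 and 6063 to 8057). Tests of the members within each side of this split stand beside the results below, and since no co-treated library is bulb-rich, comparisons with that group could be repeated in the bulb-poor libraries alone.

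In the deposited table, whose genome build is not given in the sources used here, Fcgr2b (ENSMUSG00000026656) spans chromosome 1 from 170786186 to 170804116 on the minus strand. Fcgr4 (ENSMUSG00000059089) follows at 170846489 to 170857330 on the plus strand and Fcgr3 (ENSMUSG00000059498) at 170878743 to 170892504 on the minus strand. Fcer1g (ENSMUSG00000058715) lies on the same chromosome at 171057141 to 171061934, minus strand. Fcgr1 (ENSMUSG00000015947) is on chromosome 3 at 96190225 to 96201285, minus strand. Syk (ENSMUSG00000021457) is on chromosome 13 at 52737209 to 52802828, plus strand, and Fcgrt (ENSMUSG00000003420) on chromosome 7 at 44742414 to 44753275, minus strand. All are protein-coding. Small noncoding or lncRNA genes overlap Fcgr2b, Fcgr3, Fcgr4 and Fcgrt, but they held 1, 0, 3 and 6 counts in all libraries together, against 1042 or more for each of those members. Fcgr2b and Fcgr3 have closely similar extracellular domains, so reads could be split between them and each level is uncertain to that extent.

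LPS raised every member. Against control, 7 of 7 were called higher at an adjusted p below 0.05, where 8.47% of all genes tested were called higher, and in 7 of 7 every LPS library lay above every control library, which held for 7.93% of all genes. The median member change was 1.68 on the log2 scale, beside -0.0034 over all genes. Fcgr4 rose most, about 21.6-fold, and Fcgrt least, 1.57-fold. The other 5 rose between 2.75-fold and 3.58-fold. In bulk tissue, more cells of a type and more RNA per cell cannot be told apart.

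**Figure D1:**
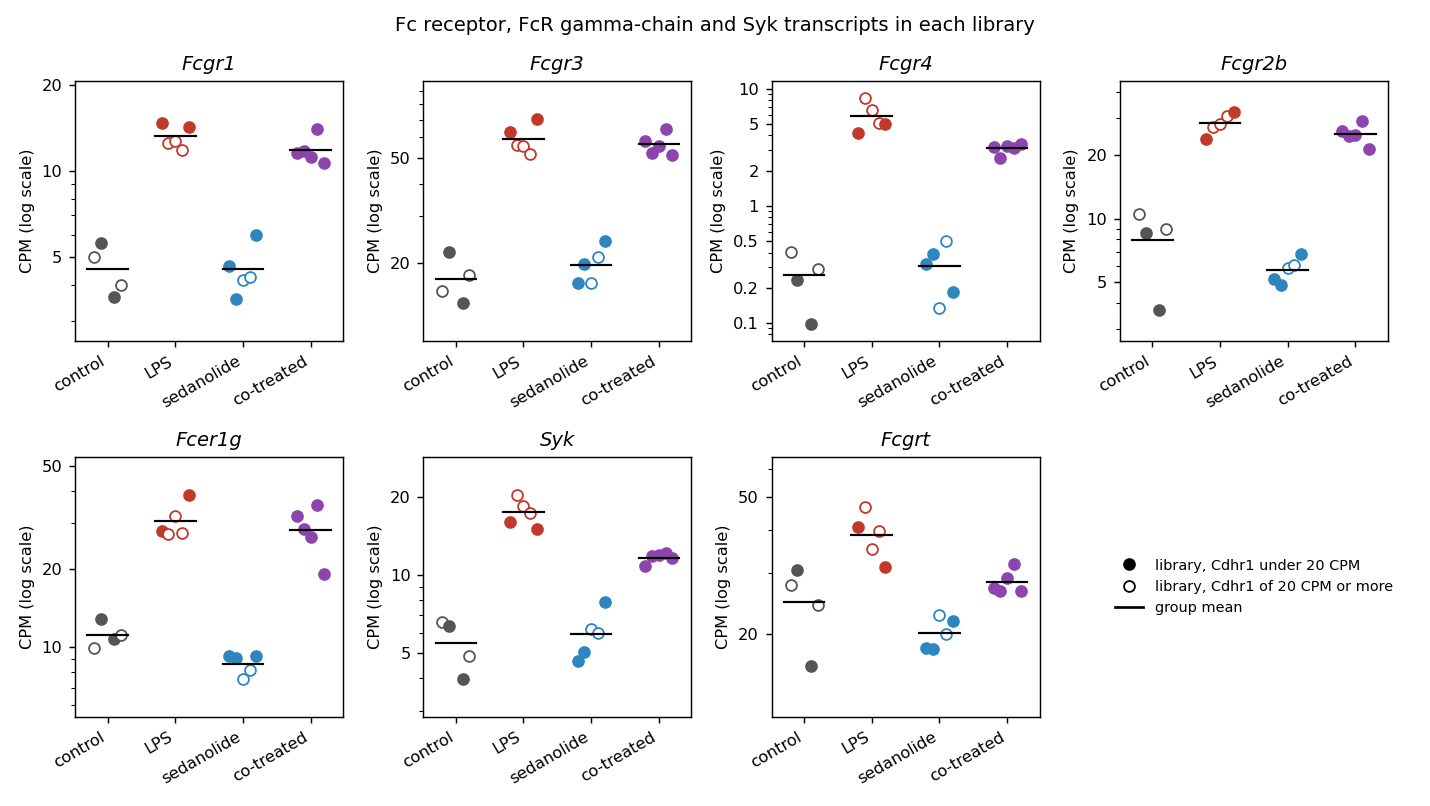
Level of each member in every library, in CPM on a log axis, with 1 point per library coloured by group, open for bulb-rich libraries (Cdhr1 of 20 CPM or more), and a bar at the group mean. LPS and co-treated points lie above control and sedanolide points for 6 of the members, while for Fcgrt the co-treated libraries (26.54 to 31.8 CPM) overlap the controls (16.11 to 30.56 CPM).

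Fcgr3, the low-affinity activating receptor, was the most abundant Fc gamma receptor in every group. Control replicates 1, 2, 4 and 5 had 15.6, 21.9, 14.1 and 18.04 CPM. LPS replicates 1 to 5 had 62.6, 55.9, 55.5, 51.7 and 70.0 CPM. The groups did not overlap, and the rise was 1.76 (log2; SE 0.135, 95% interval 1.48 to 2.05, adjusted p = 3.94e-08). Sedanolide libraries, at 16.8, 19.7, 16.8, 21.0 and 24.1 CPM, lay among or slightly above the controls (log2 difference 0.18, adjusted p = 0.415). Co-treated libraries had 57.9, 52.4, 55.5, 64.5 and 51.4 CPM, within the LPS range for 4 of 5, and the difference from LPS was -0.07 (95% interval -0.32 to 0.18, adjusted p = 0.761).

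Fcgr1, the high-affinity IgG receptor, behaved alike at a lower level. Its controls were at 5.02, 5.61, 3.64 and 4.01 CPM and its LPS libraries at 14.7, 12.5, 12.8, 11.9 and 14.2 CPM, with no overlap (log2 rise 1.53, SE 0.148, interval 1.22 to 1.84, adjusted p = 5.42e-07). Sedanolide alone gave 4.67, 3.57, 4.18, 4.28 and 5.98 CPM, spread across the control range (log2 difference -0.01, adjusted p = 0.972). With both agents it was at 11.6, 11.8, 11.2, 14.0 and 10.6 CPM. These overlapped the LPS libraries, and the difference was -0.16 (interval -0.43 to 0.12, adjusted p = 0.496).

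Fcgr4, the activating receptor for IgG2a and IgG2b and the mouse counterpart of human FCGR3A, was nearly absent without LPS. Control libraries held only 11, 5, 2 and 7 counts (0.406, 0.232, 0.0983 and 0.292 CPM), and sedanolide libraries 7, 8, 3, 12 and 4 counts (0.320, 0.391, 0.133, 0.504 and 0.183 CPM). At these counts, a difference between the groups (log2 0.21, adjusted p = 0.781) was not detectable. LPS libraries had 4.18, 8.31, 6.62, 5.09 and 4.98 CPM, all far above the controls, a rise of 4.43 (log2; SE 0.329, interval 3.75 to 5.12, adjusted p = 2.78e-08). Co-treated libraries had 3.21, 2.55, 3.25, 3.10 and 3.41 CPM. Every one lay below every LPS library and above every control.

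Fcgr2b, the inhibitory receptor, had 10.6, 8.53, 3.68 and 8.94 CPM in controls, with replicate 4 well under the others. LPS libraries were at 23.8, 27.4, 28.3, 30.8 and 32.2 CPM (log2 rise 1.84, SE 0.20, interval 1.42 to 2.26, adjusted p = 2.43e-06). Sedanolide libraries, at 5.17, 4.84, 5.87, 6.04 and 6.81 CPM, were below 3 of the 4 controls. That difference, -0.47 (interval -0.88 to -0.05), did not pass (adjusted p = 0.15). It passed in 1 of 31 alternatives, the fit without control replicate 4 (-0.70, adjusted p = 0.00664). Leaving out 1 library at a time gave -0.70 to -0.30, with adjusted p up to 0.414. Co-treated libraries had 26.1, 24.8, 25.1, 29.0 and 21.4 CPM, overlapping LPS (difference -0.17, interval -0.54 to 0.20, adjusted p = 0.586). With the counts of Fcgr2b and Fcgr3 summed as 1 gene, LPS against control gave 1.79 (adjusted p = 3.18e-08).

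Per length of annotated exon, the mix of the 4 Fc gamma receptors can be set out as shares of their summed RPKM (reads per kb of exon and M counts). In controls Fcgr3 made up 75.1% ± 4.51 (SD, n = 4), Fcgr1 13.3% ± 1.48, Fcgr2b 10.1% ± 3.29 and Fcgr4 1.51% ± 0.745. In LPS libraries (n = 5) the shares were 69.8% ± 3.11, 10.5% ± 0.659, 10.2% ± 1.36 and 9.62% ± 2.88. The Fcgr4 share was above every control in every LPS library, at 6.77% or more against 2.47% or less. In co-treated libraries it was 5.66% ± 0.766, between 4.92% and 6.76%, so these lay just under the lowest LPS library. Sedanolide libraries had Fcgr3 at 79.1% ± 1.95, Fcgr1 at 12.3% ± 1.80, Fcgr2b at 6.97% ± 0.777 and Fcgr4 at 1.72% ± 0.8286. Each range overlapped that of controls, though the mean Fcgr2b share was lower. The summed level was 13.4 RPKM ± 2.54 in controls, 48.7 ± 4.25 with LPS, 14.3 ± 2.11 with sedanolide and 43.9 ± 3.94 with both. The ratio of the 3 activating receptors to Fcgr2b, also in RPKM, was 9.83 ± 3.87 in controls and 8.99 ± 1.34 with LPS, a difference inside the control spread. It was 13.5 ± 1.57 with sedanolide and 9.07 ± 0.466 in co-treated libraries, and the sedanolide range, 11.25 to 15.6, overlapped that of controls, 6.174 to 15.09. The length used is the union of all annotated exons of a gene in GRCm38, 5790 bases for Fcgr2b and 1736 for Fcgr3. It can exceed the transcript expressed, so the shares and the ratio depend on this choice. They also carry the uncertain split of Fcgr2b and Fcgr3, and no test was made on them.

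**Figure D2:**
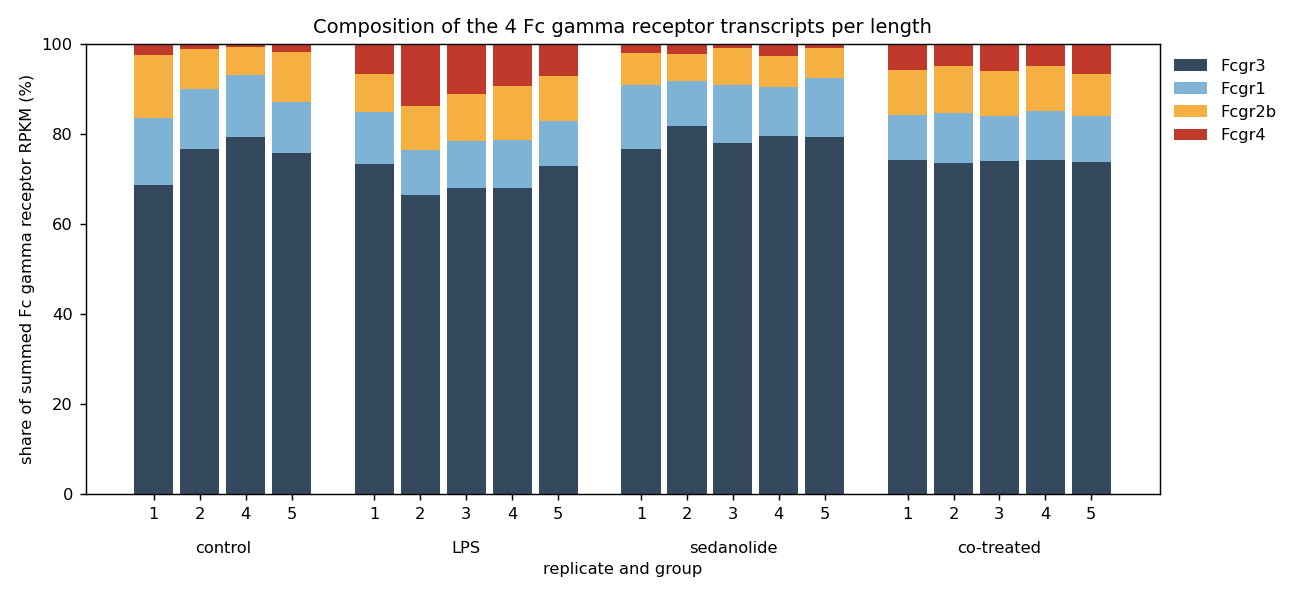
Share of the summed RPKM of Fcgr1, Fcgr2b, Fcgr3 and Fcgr4 held by each receptor, in percent, as 1 stacked bar per library, ordered by group and replicate. Fcgr3 (dark blue) holds most of the sum in every library, and the Fcgr4 share (red) separates the groups with LPS (4.92% or more) from those without (2.64% or less).

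Fcer1g, the ITAM chain that the activating receptors need, was the member with the highest mean level per length in controls, 12.8 RPKM ± 1.39. In CPM, controls had 9.90, 12.8, 10.8 and 11.1, and LPS libraries 28.0, 27.2, 31.9, 27.6 and 38.6. These did not overlap (log2 rise 1.46, SE 0.149, adjusted p = 1.06e-06). Sedanolide libraries had 9.24, 9.10, 7.56, 8.14 and 9.23 CPM, every one below every control, as held for 3.56% of all genes. The difference was -0.36 (interval -0.67 to -0.06) and did not pass (adjusted p = 0.135). Co-treated libraries spread widely, 31.9, 28.5, 26.5, 35.2 and 19.1 CPM, around the LPS values (difference -0.12, interval -0.40 to 0.16, adjusted p = 0.629). Summed activating receptors per Fcer1g, in RPKM, were 0.939 ± 0.109 in controls, 1.26 ± 0.135 with LPS, 1.35 ± 0.186 with sedanolide and 1.26 ± 0.237 with both. Every library with LPS or sedanolide exceeded every control in this ratio, at 1.105 or more against 1.022 or less. This ratio was not tested and depends on the exon lengths used. With sedanolide alone, neither Fcer1g nor any activating receptor was called.

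Syk, the kinase that docks on the phosphorylated ITAM, had 6.58, 6.40, 3.98 and 4.89 CPM in controls. In LPS libraries it had 16.1, 20.5, 18.5, 17.4 and 15.1 CPM, all above the controls (log2 rise 1.68, SE 0.156, interval 1.35 to 2.00, adjusted p = 3.73e-07). Sedanolide libraries had 4.67, 5.04, 6.18, 6.0 and 7.90 CPM, across and above the control range (difference 0.12, adjusted p = 0.648). Co-treated libraries were tightly grouped at 10.9, 11.8, 11.99, 12.2 and 11.7 CPM, between the controls and LPS without touching either.

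Fcgrt, the FcRn heavy chain, was one of the more abundant members per length in controls (11.7 RPKM ± 2.98). Controls had 27.7, 30.6, 16.1 and 24.3 CPM, and LPS libraries 40.8, 46.6, 35.2, 39.7 and 31.2 CPM. The lowest LPS value lay just above the highest control (log2 rise 0.65, SE 0.145, interval 0.34 to 0.95, adjusted p = 0.00497). Sedanolide libraries had 18.3, 18.1, 22.6, 20.0 and 21.8 CPM, below 3 of 4 controls but not called (difference -0.29, adjusted p = 0.216). The call was made in 1 of 30 alternatives, the fit without control replicate 4 (-0.45, adjusted p = 0.0312). Leaving out 1 library at a time gave -0.45 to -0.17, with adjusted p up to 0.468. Co-treated libraries had 27.2, 26.5, 29.1, 31.8 and 26.6 CPM, around the upper end of the control range, and 4 of 5 were under every LPS library. Its light chain partner B2m rose by 1.45 with LPS (log2, adjusted p = 1.02e-06), from 123 CPM ± 14.9 to 337 ± 51.3.

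Levels of different members can be ordered only per length. That length is the union of annotated exons, from 874 bases for Fcer1g to 9362 for Syk, and the order depends on it. In controls Fcer1g, Fcgrt (11.7 RPKM ± 2.98) and Fcgr3 (10.03 ± 1.96) came first and overlapped. Fcgr1 (1.77 ± 0.351), Fcgr2b (1.37 ± 0.512) and Syk (0.583 ± 0.133) followed, each overlapping its neighbour, and Fcgr4 (0.205 ± 0.102) came last without overlap. In LPS libraries Fcer1g (35.1 ± 5.54) and Fcgr3 (34.1 ± 4.18) led and overlapped each other, and both exceeded Fcgrt (18.4 ± 2.77) in every library. Fcgr1 (5.10 ± 0.466), Fcgr2b (4.93 ± 0.559) and Fcgr4 (4.65 ± 1.31) overlapped, and Syk (1.87 ± 0.227) was lowest. Fcgr4 thus moved from last place to the level of Fcgr1 and Fcgr2b.

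The LPS rise stood within each side of the bulb split for 6 of 7 members. Among bulb-poor libraries (2 controls, 2 LPS) the log2 rise was 4.71 for Fcgr4, 2.17 for Fcgr2b, 1.86 for Fcgr3, 1.62 for Fcgr1, 1.56 for Syk and 1.48 for Fcer1g, all called. Among bulb-rich libraries (2 controls, 3 LPS) it was 4.20, 1.53, 1.66, 1.42, 1.68 and 1.43 in the same order, all called. Fcgrt kept its size but was not called in either (0.60, adjusted p = 0.169, and 0.61, adjusted p = 0.0772), nor in a fit of the LPS and control libraries alone (0.63, adjusted p = 0.0749).

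Sedanolide alone called none of the 7 members in either direction with edgeR, DESeq2 or limma-voom, where 5.31% of all genes were called with edgeR. At an unadjusted p below 0.05 there were 2 of 7 members, Fcgr2b and Fcer1g, both lower, where 24.9% of all genes were below it, so this count is near the background. The control libraries of this comparison are also those of LPS against control. Within the bulb-poor libraries Fcer1g differed by -0.39 (adjusted p = 0.487) and within the bulb-rich by -0.44 (adjusted p = 0.144). For Fcgr2b the values were -0.16 (adjusted p = 0.857) and -0.73 (adjusted p = 0.0963).

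Co-treatment was compared with LPS to ask which of the LPS-raised members were lower when sedanolide was given too. Fcgr4 and Syk were called lower, 2 of 7 members, where 1.68% of all genes were called lower. These were also the members for which every co-treated library lay below every LPS library, as did 4.6% of all genes. Fcgr4 fell by 0.91 on the log2 scale (SE 0.234, interval -1.40 to -0.42, adjusted p = 0.0495) and Syk by 0.58 (SE 0.139, interval -0.87 to -0.29, adjusted p = 0.0356). Fcgrt differed by -0.45 (interval -0.74 to -0.17) without passing (adjusted p = 0.0874), and by -0.34 among bulb-poor libraries (adjusted p = 0.548). Fcgr1, Fcgr2b, Fcgr3 and Fcer1g differed by -0.07 to -0.17 and their intervals, given above, include 0. The median member difference was -0.17, beside -0.0127 over all genes.

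Both calls sit close to the threshold and move with the libraries used. Fcgr4 was called in 10 of 29 alternatives and Syk in 17 of 29, always in the same direction. The Fcgr4 call was lost on leaving out control replicate 2 or 5, LPS replicate 2, 3 or 4, sedanolide replicate 1, 2 or 5, or any co-treated library, with adjusted p up to 0.186. Syk lost it without LPS replicate 2, 3 or 4, sedanolide replicate 4 or any co-treated library, with adjusted p up to 0.127. LPS libraries that were bulb-rich were higher in both genes: Fcgr4 was at 5.09 to 8.31 CPM in the 3 bulb-rich and 4.18 to 4.98 in the 2 bulb-poor LPS libraries, against 2.55 to 3.41 in the co-treated, which are all bulb-poor. For Syk the corresponding ranges were 17.4 to 20.5, 15.1 to 16.1 and 10.9 to 12.2 CPM. Among bulb-poor libraries the groups still did not overlap, but the difference fell to -0.55 for Fcgr4 (adjusted p = 0.373) and -0.40 for Syk (adjusted p = 0.478), and neither was called. With an index of bulb markers as a covariate the values were -0.56 (adjusted p = 0.416) and -0.45 (adjusted p = 0.208).

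**Figure D3:**
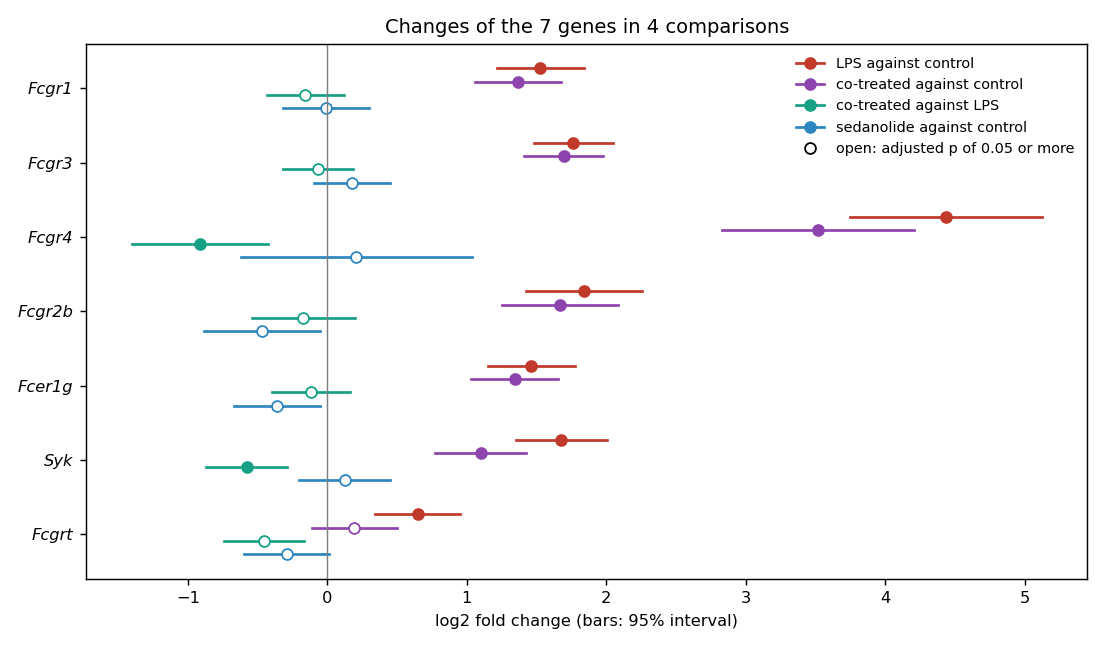
Log2 change of each member with its 95% interval in 4 comparisons, from the edgeR fit, with filled points for calls at an adjusted p below 0.05. All 7 members are to the right of 0 with LPS, and in co-treated against LPS the called points are Fcgr4 at -0.91 and Syk at -0.58.

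Against saline controls, co-treated mice kept 6 of 7 members called higher, where 6.38% of all genes were called higher, and the same 6 did not overlap with controls, as held for 7.91% of all genes. The log2 rises were 3.52 for Fcgr4, 1.69 for Fcgr3, 1.67 for Fcgr2b, 1.37 for Fcgr1, 1.34 for Fcer1g and 1.10 for Syk. Fcgrt was 0.19 above control and did not pass (adjusted p = 0.403). Against sedanolide alone, 7 of 7 were called higher (5.09% of all genes) and 7 of 7 did not overlap (5.4% of all genes). In that comparison Fcgr4 rose by 3.31, Fcgr2b by 2.14, Fcer1g by 1.71, Fcgr3 by 1.52, Fcgr1 by 1.38, Syk by 0.97 and Fcgrt by 0.49 on the log2 scale. The Fcgrt rise was near the threshold (adjusted p = 0.0405) and was called in 15 of 29 alternatives. It was lost without control replicate 5, LPS replicate 1 or 4, any sedanolide library but replicate 3, or any co-treated library but replicate 5. Among bulb-poor libraries the Fcgrt rise was 0.56 and not called (adjusted p = 0.0728), while the other 6 members were called higher there in both comparisons. These comparisons share libraries with those above.

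The interaction asks whether the LPS effect differed between mice with and without sedanolide. No member was called with edgeR, where 0.586% of all genes were, and 2 of 7 members had an unadjusted p below 0.05, where 15.9% of all genes did. Syk had the largest ratio of effect to error, -0.70 (SE 0.208, interval -1.14 to -0.27, adjusted p = 0.128), and DESeq2 (-0.69, adjusted p = 0.0497) and limma-voom (-0.86, adjusted p = 0.00258) called it. It was not called among bulb-poor libraries (-0.54, adjusted p = 0.701), with the bulb index (-0.64, adjusted p = 0.0903) or with the replicate number as a block (-0.69, adjusted p = 0.306). Fcgr4 was at -1.12 with a wide interval, -2.09 to -0.16 (adjusted p = 0.241), as its levels without LPS rest on 12 or fewer counts per library, and at -1.33 among bulb-poor libraries (adjusted p = 0.615). For the other members the adjusted p was between 0.53 and 0.77.

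Outside the members, the genes whose profile over the 19 libraries was most like each one were sought by the root mean square (RMS) difference of centred log2 CPM among 13776 genes. The libraries share treatments and depth, so this is a description. Fcgr3 and Fcgr1 were both closest to Cd68, a lysosomal protein of macrophages (RMS 0.125 and 0.155), then Fcgr3 to Ncf1 (0.130), a subunit of the phagocyte oxidase. Fcer1g was closest to B2m (0.134) and to Tyrobp (0.161), the DAP12 chain that also carries an ITAM. Fcgr2b was closest to Ifi30 (0.241), a lysosomal thiol reductase of antigen processing, and Fcgrt to Spata13 (0.127). Syk was closest to Stab1 (0.159), a scavenger receptor and one of the border macrophage markers, and, after Tnfrsf1b, to Plcg2 (0.195), the phospholipase that Syk phosphorylates. The RMS grows with a gene's own spread, which was widest for Fcgr4 (SD 1.92 on the log2 scale, against 0.417 for Fcgrt). Fcgr4 also had few counts without LPS, so its distances cannot be set beside those of the others. The gene closest to Fcgr4 was the integrin Itgax, at 0.577, and its nearest member was Fcgr2b, at 0.924. Fcgr3 and Fcgr1 were 0.191 apart. In co-treated against LPS, Itgax was at 0.02 (log2). The genes next closest to Fcgr4, Clec4a1 (RMS 0.624) and Ly9 (0.639), were at -1.08 and -0.06. Stab1 was at -0.74 (adjusted p = 0.033).

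Around the members, many listed signalling partners were called higher with LPS and none lower in any of 8 pathway lists. Of the 81 genes tested in these lists, 50 were called higher (61.7%), where 8.47% of all genes were. Among Src family kinases, which phosphorylate the ITAM, 4 of 7 tested (of 8 listed) rose, among them Fgr by 4.36, Lyn by 0.89 and Src by 0.34 (log2). Among effectors downstream of Syk, 14 of 22 rose, led by Rac2 (2.66), a GTPase of the phagocyte oxidase, Was (1.84), an actin regulator, Vav1 (1.64), an exchange factor for Rac, and Lcp2 (1.59), the adaptor SLP-76. The median of these effectors was 0.92, beside -0.0034 over all genes. Of the inhibitory phosphatases, ligases and adaptors, 6 of 14 tested (of 15) rose, including Ptpn6 (SHP-1, 1.94), Inpp5d (SHIP1, 1.52), Dok1 (1.47) and Cbl (0.40). Of ITIM receptors, 11 of 12 tested (of 13) rose, with Pirb at 3.29, Pilra at 3.20, Siglece at 2.02 and Cd300a at 1.86. Genes of the activating and the inhibitory arm were thus among the calls.

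Of other ITAM and hemITAM chains, 3 of 5 tested (of 10) rose with LPS, namely Clec7a (1.57), Cd79b (1.56) and Tyrobp (1.39). Of receptors that pair with ITAM adaptors, 8 of 10 tested (of 12) rose. They included Trem2 (1.48), the lipid receptor of microglia that signals through Tyrobp, and Trem1, Clec4e and Clec4d, which were almost absent from controls (means of 0.0104, 0.0227 and 0.0324 CPM) and had means of 0.768, 1.05 and 0.686 CPM with LPS. Of the FcRn partner and other Fc receptor genes, 2 of 5 tested (of 12) rose, B2m and Fcrl1 (0.92). On the ligand side, 2 of 6 tested immunoglobulin and pentraxin genes (of 15) rose: Igkc, the kappa light chain constant region, by 2.39 and Ighm, the IgM heavy chain, by 1.09. Igkc levels were low, 0.317 CPM ± 0.150 in controls and 1.70 ± 0.574 with LPS.

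In co-treated against LPS, 7 of the 81 genes tested in these 8 lists were called (8.64%), where 1.68% of all genes were called lower. All of these calls were lower and none was higher. None of the 22 effectors downstream of Syk was called, although their median was -0.23. Lower calls were Clec4e, Trem1 and Cd300lb among 10 pairing receptors, Fgr among 7 Src family kinases, Ptpn6 among 14 inhibitory genes, Clec12a among 12 ITIM receptors and Igkc among 6 ligand genes. Fgr went from 3.41 CPM ± 0.949 to 1.24 ± 0.364 (log2 -1.45, adjusted p = 0.0159), Ptpn6 from 17.9 ± 2.19 to 12.6 ± 0.888 (-0.51, adjusted p = 0.019) and Igkc from 1.70 ± 0.574 to 0.555 ± 0.111 (-1.60, adjusted p = 0.0304). Clec4e went from 1.05 CPM ± 0.424 to 0.0989 ± 0.0819 (adjusted p = 0.00139) and Trem1 from 0.768 ± 0.252 to 0.127 ± 0.0823 (adjusted p = 0.00617). Among bulb-poor libraries Clec4e was the one of these 7 genes still called (log2 -3.60, adjusted p = 0.0307). The others kept their direction there without passing: Fgr was at -1.04 (adjusted p = 0.317), Ptpn6 at -0.48 (adjusted p = 0.228), Igkc at -1.39 (adjusted p = 0.331) and Trem1 at -2.08 (adjusted p = 0.278). Cd300lb and Clec12a were at -1.79 and -1.33 (adjusted p = 0.291 and 0.278). Partners of the members that were not called were B2m (-0.03, adjusted p = 0.914), Tyrobp (0.04, adjusted p = 0.916), Lyn (-0.45, adjusted p = 0.294) and Inpp5d (-0.25, adjusted p = 0.277).

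**Figure D4:**
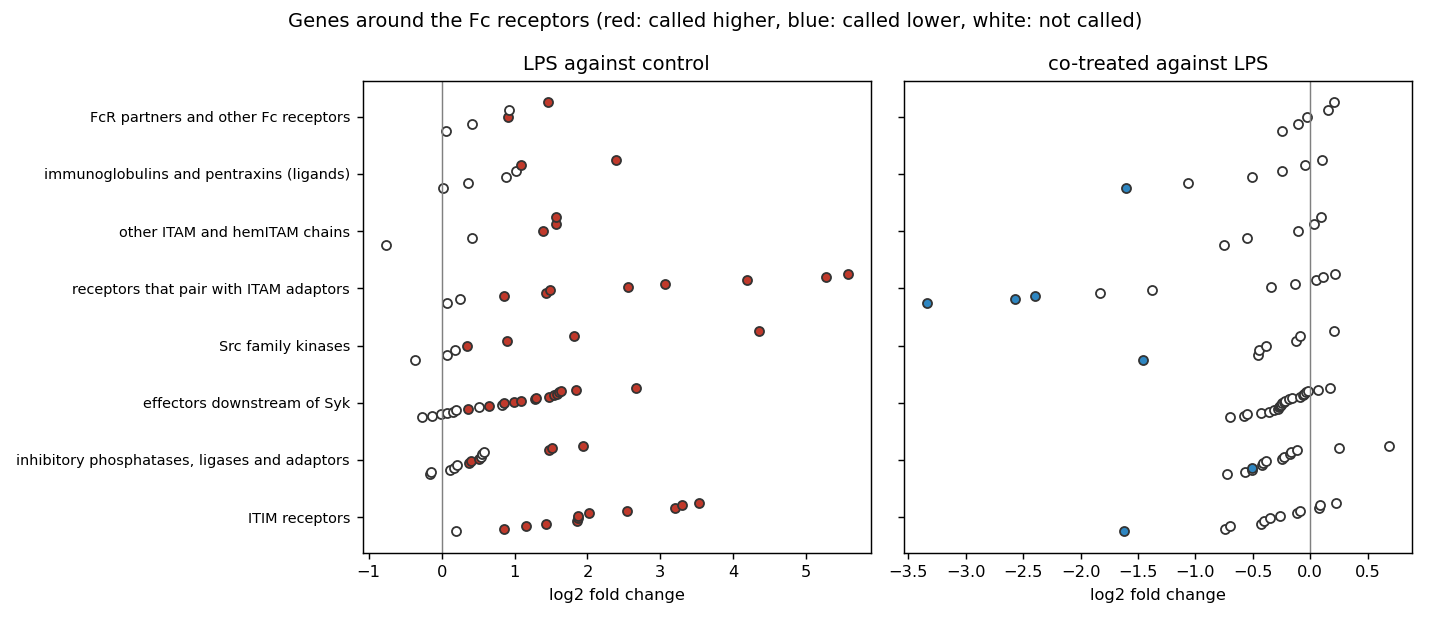
Log2 change of each tested gene (1 point per gene) in 8 pathway lists, for LPS against control on the left and co-treated against LPS on the right, red where called higher, blue where called lower and white where not called. With LPS every list has red points and none a blue one, and in co-treated against LPS a list has at most 3 blue points and no red one.

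Sedanolide alone called 4 of the 81 genes tested in these 8 lists, 4.94%, a share close to the 5.31% of all genes. The 4 are named after their values were seen. Inpp5d, the SHIP1 phosphatase through which Fcgr2b acts, rose by 0.64 (log2, adjusted p = 0.0164), from 14.4 CPM ± 3.34 in controls to 22.4 ± 2.51. Cbl, a ubiquitin ligase that acts on Syk, rose by 0.33 (adjusted p = 0.0492) and Src by 0.27 (adjusted p = 0.046). Yes1, a Src family kinase, fell by 0.64 (adjusted p = 0.0165). None of the 4 was called within the bulb-poor or the bulb-rich libraries, where Inpp5d was at 0.46 (adjusted p = 0.344) and 0.77 (adjusted p = 0.0963). Inpp5d was also the one listed gene called in the interaction, at -0.88 (adjusted p = 0.0407), with a smaller LPS rise in the presence of sedanolide from a higher starting level, but it was not called among bulb-poor libraries (-0.80, adjusted p = 0.441).

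Markers of several cell types that carry these receptors were higher with LPS, though not those of every type. Beside the counts of markers below, 8.47% of all genes were called higher with LPS and 1.68% lower in co-treated against LPS. The 9 microglial markers summed to 445.6 to 626.6 CPM in controls and 980.6 to 1214 CPM with LPS, with 6 of 9 called higher. P2ry12, a receptor of resting microglia, was not called (adjusted p = 0.239). The sums were 496.9 to 640.1 CPM with sedanolide and 935.7 to 1227 CPM in co-treated libraries, where 0 of 9 differed from LPS. Of neutrophil markers, 8 of 8 tested (of 9) were called higher with LPS and 5 of 8 lower in co-treated against LPS, with summed levels of 7.52 to 12.3 CPM in controls, 62.1 to 68.0 with LPS, 5.58 to 12.1 with sedanolide and 29.9 to 41.4 with both. Ly6g, their defining gene, was at or near 0 throughout (0.129 CPM at most).

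Monocyte markers summed to 65.2 to 134 CPM in controls, 219 to 355 with LPS, 61.3 to 114 with sedanolide and 120 to 159 with both, with 6 of 7 called higher with LPS and 3 of 7 lower in co-treated against LPS. Border macrophage markers summed to 22.7 to 50.8, 64.7 to 130, 24.8 to 41.2 and 39.7 to 56.8 CPM in the same order, with 2 higher and 1 lower of 7 with LPS and 4 of 7 lower in co-treated against LPS. NK cell markers summed to 0.344 to 1.11, 5.26 to 8.35, 0 to 0.267 and 2.93 to 5.32 CPM, with 5 of 6 higher with LPS and 0 of 6 called in co-treated against LPS. Of endothelial markers, 7 of 7 rose with LPS (308.7 to 483.2 CPM against 600 to 723.7) and 1 of 7 was lower in co-treated libraries (417.3 to 550.6), beside the Fcgrt values above. Of dendritic cell markers, 0 of 3 tested (of 5) were called higher and 1 lower with LPS (Cd209a, named after its values were seen), and they summed to 2.80 to 5.65 CPM in controls and 3.33 to 3.78 with LPS. B and plasma cell markers reached 2.67 CPM at most, and mast cell markers 0.555 CPM. Fcgr4 and Syk thus fell in the libraries in which neutrophil, monocyte and border macrophage markers were also lower. Among bulb-poor libraries alone, 1 of 8 neutrophil markers was called lower and none of the 7 monocyte, 7 border macrophage or 7 endothelial markers, while the summed neutrophil, monocyte and border macrophage levels of the 2 LPS libraries (64.5 to 67.4, 219 to 265.5 and 64.7 to 72.6 CPM) still lay above every co-treated library. The part of these cells in the result was not tested.

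Set against microglial markers, Fcgr3 and Fcgr4 were higher with LPS than in any control, and Fcgrt had a lower mean. Each level was divided by the geometric mean of 8 microglial markers, leaving out Sall1 after its values were seen, since it was at 46.4 to 135 CPM in bulb-rich and 19.1 to 43.8 CPM in bulb-poor libraries. Fcgr3 went from a mean log2 ratio of -1.31 ± 0.19 (SD, n = 4) in controls to -0.65 ± 0.05 with LPS (n = 5) and -0.70 ± 0.05 in co-treated libraries, with no overlap with controls. Fcgr4 went from -7.54 ± 1.00 to -4.02 ± 0.51 and -4.89 ± 0.24, where the LPS and co-treated ranges overlapped (-4.55 to -3.32 and -5.12 to -4.53). Syk was at -2.99 ± 0.45, -2.40 ± 0.34 and -2.96 ± 0.17, and the LPS and co-treated ranges again overlapped. With all 9 markers Syk was at -3.00 ± 0.31 in controls, -2.33 ± 0.27 with LPS and -2.80 ± 0.16 in co-treated libraries, so how near its co-treated mean came to the control mean depends on Sall1. The Fcgrt ratio went the other way, from -0.82 ± 0.44 to -1.27 ± 0.38 and -1.70 ± 0.09. The geometric mean of the markers was itself higher, 33.11 to 56.61 CPM in controls, 81.65 to 111 with LPS and 78.52 to 107.8 in co-treated libraries. The lower Fcgrt ratio thus means that Fcgrt rose less than these markers, not that its own level fell. Fcer1g with sedanolide alone was at -2.42 ± 0.11, below every control (-2.15 to -1.74), as it was with 9 markers. With 9 markers Fcgr3 and Fcgr4 kept their separation from controls, Fcgr1 and Fcer1g were also above every control with LPS (-2.81 or more against -2.95 or less, and -1.68 or more against -1.79 or less), and the Fcgrt means kept their order. These ratios are descriptions and were not tested.

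**Figure D5:**
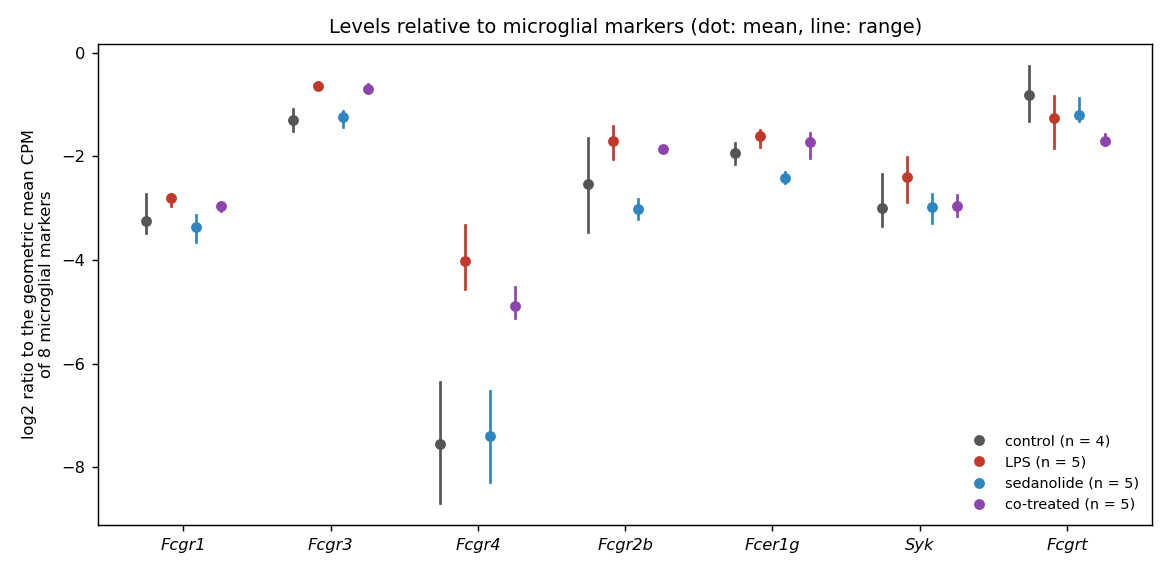
Log2 ratio of each member's CPM to the geometric mean CPM of 8 microglial markers, by group, with a dot at the mean and a line over the range of the libraries. Fcgr4 shows the widest separation between groups with and without LPS, and the Fcgrt means with LPS (-1.27) and with both agents (-1.70) lie below the control mean (-0.82). The markers' geometric mean was itself higher in both groups with LPS.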

How the data were processed

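Messenger RNA of 19 mouse prefrontal libraries was measured by bulk RNA-seq from TRIzol extracts with a stranded Illumina kit, per the labels' protocols. The authors deposited unnormalized read counts, as whole numbers for each gene. Per the submitters' processing notes, fastp, HISAT2, StringTie, RSEM and DESeq2 were used, with no versions. The deposited counts are named as featureCounts output, a tool that is not in that list. The counting settings, use of strand and genome build are not given in the sources used here. Only 2.9% of gene identifiers shared with a GRCm38 annotation (GENCODE) have the same start, so gene coordinates are those of the deposited table. All count columns matched a sample.

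The test was run in edgeR 4.0.16 (R 4.3.3), with TMM factors, the default filter by group (17757 genes), and the robust quasi-likelihood test with all 19 libraries in 1 model, two-sided, with Benjamini-Hochberg adjustment over all genes tested. Genes with an adjusted p below 0.05 are called. SE was derived from the F statistic (log2 change divided by its root), and intervals cover 95%. RPKM used the union of exons in GRCm38. Promoters are from RefSeq (GRCm38.p6), in which all 7 members matched. Depth ranged from 19.08 M to 24.32 M counts. Members, lists and tests were chosen with earlier results of these data known. Named genes are the members, up to 4 called genes per list and direction with the smallest p in LPS against control and co-treated against LPS, the partners B2m, Tyrobp, Lyn, Inpp5d and Ptpn6, and the 3 genes most like each member with mean log2 CPM of at least 1; some of these are not reported here. The script was tested on simulated data. Alternatives were RLE and upper quartile factors, no filter, 1 CPM in 4 libraries, DESeq2 1.42.0, limma-voom 3.58.1 with sample weights, the replicate number as a block, a fit of the compared groups alone, a bulb index (Eomes, Cdhr1, Doc2g and Shisa3), bulb-poor libraries (Cdhr1 under 20 CPM), Fcgr2b and Fcgr3 summed, and leaving out each library. A fit of the bulb-rich libraries, and the values of the marker lists and of the listed genes called with sedanolide within the bulb split, were added after seeing the data. Replicate numbers were not used to pair the samples in the main fit.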

Additional observations from a re-analysis of the deposited data

How the results depend on the processing

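The LPS rise of Fcgr1, Fcgr2b, Fcgr3, Fcgr4, Fcer1g and Syk was called in every alternative. The number of members called was 7 with LPS on leaving out any library, 0 to 2 with sedanolide, 0 to 3 in co-treated against LPS, 6 in co-treated against control, 6 to 7 in co-treated against sedanolide, and 0 in the interaction. In co-treated against LPS (2 members called) it was 1 with RLE factors, upper quartile factors or no filter, and 0 with the bulb index or in bulb-poor libraries. In the interaction it was 1 with DESeq2 and 1 with limma-voom (Syk). Fcgrt in co-treated against LPS was called without control replicate 4 (adjusted p = 0.0209) and without LPS replicate 5 (adjusted p = 0.0446), with DESeq2, limma-voom and only the groups compared. Why these calls moved was not tested.

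Counts over all genes moved more. LPS against control called 1938 genes, and 4503 with limma-voom, 1114 with only the groups compared, 848 in bulb-poor and 761 in bulb-rich libraries, and 1308 to 2478 on leaving out a library. Sedanolide against control called 943, and 439 with no filter, 1860 with DESeq2, 4399 with limma-voom, 19 with only the groups compared, 8 in bulb-poor and 0 in bulb-rich libraries, and 97 (without control replicate 5) to 1410 (without control replicate 4). Co-treated against LPS called 350, and 904 with DESeq2, 2647 with limma-voom, 723 with only the groups compared, 107 with the bulb index, 35 in bulb-poor libraries, and 141 (without LPS replicate 2) to 590 (without LPS replicate 5). Co-treated against control called 1965, and 1244 with no filter, 4784 with limma-voom, 1081 with the bulb index, 615 in bulb-poor libraries, and 876 (without control replicate 5) to 2907 without a library. Co-treated against sedanolide called 990, 3513 with limma-voom, and 762 to 1247 without a library. The interaction called 104, and 441 with DESeq2, 3836 with limma-voom, 270 with the bulb index, 20 in bulb-poor libraries, and 33 (without control replicate 5) to 242 (without control replicate 2). Upper quartile factors called 340 higher and 568 lower with sedanolide, beside 568 and 375, and 49 and 39 in the interaction, beside 38 and 66. The cause was not tested.

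Directions that turned were all of differences that were not called. With sedanolide, Fcgr1 (-0.01) was 0.10 with limma-voom and 0.01 in bulb-poor libraries, and -0.13 to 0.10 without a library; Fcgr2b was 0.00 when summed with Fcgr3; Fcgr4 (0.21) was -0.14 in bulb-rich libraries and -0.08 to 0.53 without a library. In co-treated against LPS, Fcgr2b was 0.01, Tyrobp -0.06, Ighm -0.01 and Clec7a 0.10 with the bulb index, B2m was 0.03, Fcrl1 0.00 and Ighm -0.04 with limma-voom, and Tyrobp was -0.02 and Trem2 -0.04 in bulb-poor libraries. Without a library, B2m was -0.12 to 0.08, Tyrobp -0.08 to 0.17, Ighm -0.04 to 0.22 and Cd79b -0.05 to 0.26. Summed with Fcgr3, Fcgr2b had -0.11 in the interaction.

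The replicate number is shared between groups in the labels. Same-numbered samples deviated together in 5 of 27 pairs (correlation over 0.1, median -0.08), and differently numbered ones in 42 of 108. Bulb-rich libraries of different numbers could correlate strongly (0.789 for control replicate 1 and LPS replicate 2). The check therefore cannot decide whether the numbers mark a pairing, and the block is an alternative only. With the replicate block, co-treated against LPS called 0 members and 145 genes, sedanolide against control 95 genes (Fcgr1 at 0.01), co-treated against control 954 genes and the interaction 32.

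Depth limits Fcgr4 without LPS, which rests on 2 to 12 counts per library.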
